A study of Mus musculus with 6 samples.

Results

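The LIF and STAT3 pathway was followed through 10 genes of mouse embryonic stem cells (mESCs). The genes were chosen by their known role: the receptor chains Lifr and Il6st, the kinases Jak1 and Jak2, the transcription factor Stat3, and the target genes Socs3, Pim1, Pim3, Junb and Myc. Earlier results of these data were known when they were chosen. They are 10 of the 55401 genes in each deposited table, and all 10 were among the 14156 genes tested, those with a mean of at least 0.5 TPM over all libraries. TPM is a transcript's share of the library after division by its length. The series holds 6 bulk poly(A) RNA libraries of 46C cells, an mESC line, in 3 groups of 2. The control carries the biotin tag alone, Rbbp4 OE stably expresses biotin-Rbbp4 and Rbbp7 OE stably expresses biotin-Rbbp7. By the study's methods, all 3 groups also carry a lentiviral birA biotin ligase, the tag constructs came in by lentivirus with drug selection, and all cells grew on gelatin in medium with serum, CHIR99021, PD0325901 and LIF. The labels give no treatment in any library. The lines are selected pools, in which transgene copies can differ from cell to cell, and LIF was never withdrawn, so the pathway was measured only while its ligand was supplied.

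LIF is the cytokine that keeps mESCs undifferentiated in culture. It binds LIFR, which pairs with the shared receptor chain gp130, the product of Il6st. The JAK kinases bound to the receptor then phosphorylate it and STAT3, and phosphorylated STAT3 enters the nucleus, binds DNA and raises its target genes. One of these targets, SOCS3, feeds back to block the receptor complex. The same receptor also feeds the ERK and PI3K branches through SHP2, the product of Ptpn11. RBBP4 and RBBP7 are similar histone-binding proteins found in several complexes that modify chromatin. The RNA level of a pathway gene does not show how much STAT3 was phosphorylated.

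The overexpressed genes stood where the labels put them. Rbbp4 had 146 and 147.0 TPM in the controls, 270.0 and 271 TPM with Rbbp4 OE and 144 and 143 TPM with Rbbp7 OE. Rbbp7 had 239 and 237 TPM in the controls, 208 and 217 TPM with Rbbp4 OE and 725 and 748 TPM with Rbbp7 OE. All 7 embryonic stem cell markers were present, with a summed level of 7640 to 8658 TPM per library that was mostly Dppa5a and Pou5f1. In Rbbp4 OE, Pou5f1 was higher (log2 fold change 0.25, limma adjusted p = 0.0334), Nanog was lower (-0.23, limma adjusted p = 0.0393) and the other 5 did not pass. Of all tested genes, 3.29% passed as higher and 8.07% as lower in that comparison, so 1 of 7 each way is no result about the list. Markers of other cell types were low for fibroblasts, with 6 genes summing to 4.48 and 5.59 TPM in the controls, 9.09 and 11.7 TPM with Rbbp4 OE and 15.7 and 8.75 TPM with Rbbp7 OE, and Lum listed at 0 throughout. The members of that list did not move as 1. Col3a1 was at 6.39 TPM in Rbbp7 OE replicate 1 and at most 0.06 TPM in any other library, and Col1a2 was at 1.3 and 0.79 TPM in the Rbbp7 OE libraries and at most 0.11 TPM elsewhere. Col1a1 was at 0.81 and 0.86 TPM in the Rbbp7 OE libraries and at most 0.46 TPM elsewhere, and Dcn at 0 to 0.36 TPM, highest in Rbbp4 OE replicate 2. Thy1, the most abundant of the list in every library, passed as higher in Rbbp4 OE (8.87 and 10.8 TPM against 4.13 and 5.02 TPM in the controls, limma adjusted p = 0.0192). The trophoblast list summed to 23.0 and 22.9 TPM in the controls, and 24.7 and 32.8 TPM with Rbbp4 OE. With Rbbp7 OE it summed to 34.5 and 37.6 TPM. Its genes went both ways: Eomes and Krt8 were above both controls in every library of both lines, and Cdx2 and Gata3 were below. None of them passed. Hand1 was at 2.11 TPM in Rbbp4 OE replicate 2 and at most 0.26 TPM elsewhere. The primitive endoderm list ran from 0.63 to 3.29 TPM, highest in Rbbp7 OE replicate 1. The mesoderm list ran from 2.22 to 5.6 TPM, highest in Rbbp7 OE replicate 2. The neural list, mostly Tubb3, summed to 105 and 104 TPM in the controls. It summed to 120 and 122 TPM with Rbbp4 OE and 94.9 and 96.5 TPM with Rbbp7 OE. The part of these transcripts in the results given here was not tested.

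The question of the first comparison was which pathway genes differ when Rbbp4 is overexpressed. In Rbbp4 OE, Stat3 was lower than in control and Junb was higher, and these were the 2 of 10 genes that passed the test. Lifr, the ligand-binding receptor chain, showed the largest difference of the 10 and missed the threshold. The feedback gene Socs3 and the other targets, Pim1, Pim3 and Myc, did not pass. The test was limma on log2(TPM + 1), with Benjamini-Hochberg adjustment over all 14156 genes, and a gene passed at an adjusted p under 0.05. Of all tested genes, 11.4% passed in this comparison, 3.29% higher and 8.07% lower, so 2 of 10 genes lies near that background and is no result about the 10 as a list. The split of all calls was 466 higher and 1143 lower, and 716 higher and 712 lower after median-of-ratios scaling. None of the 10 met the study's stricter thresholds, an adjusted p under 0.01 and a fold over 2, which 0.516% of all tested genes met. The labels do not say that the 2 libraries of a group came from separate cultures, so the p-values measure the spread between libraries, which may be technical. In bulk RNA, fewer cells with a transcript and less of it per cell cannot be told apart.

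**Figure D1:**
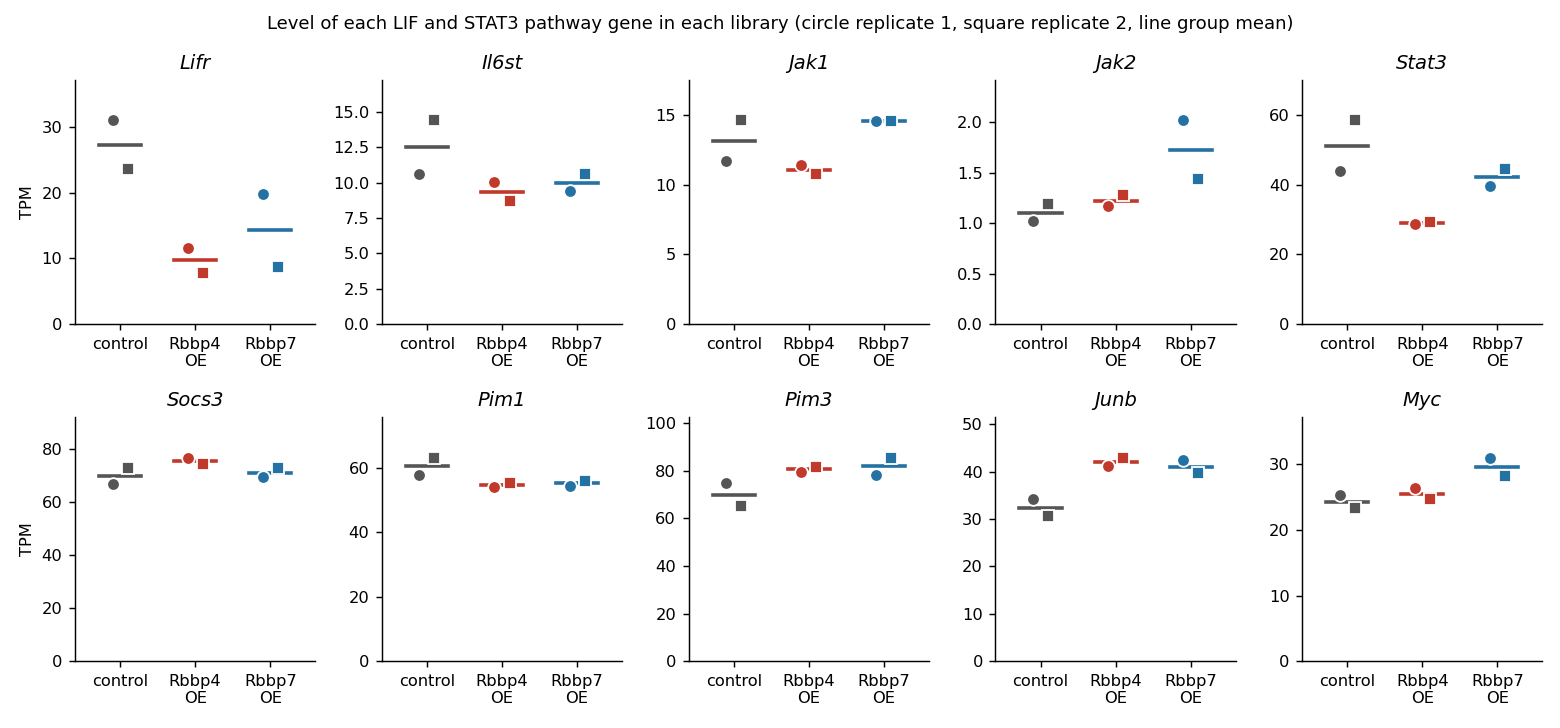
TPM (vertical axis, from 0, one scale per gene) of the 10 pathway genes in each library, by group. Circles are replicate 1, squares replicate 2 and lines the group means. Lifr and Stat3 sit lowest in Rbbp4 OE, at group means of 9.74 and 29.0 TPM, while Socs3 stays between 67.0 and 76.8 TPM in all 6 libraries.

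The receptor chains were examined first. Lifr (ENSMUSG00000054263.12, GRCm38, chr15:7090614-7197489, plus strand) encodes the chain that binds LIF. It had 31.1 and 23.6 TPM in the controls, 11.6 and 7.86 TPM with Rbbp4 OE and 19.8 and 8.75 TPM with Rbbp7 OE. Every library of both overexpression lines was below both controls, and the lines overlapped each other. For Rbbp4 OE the log2 fold change was -1.41 (SE 0.37, limma adjusted p = 0.063). Only 0.459% of the tested genes had a lower log2 fold change in that comparison. In Rbbp7 OE it was -0.98 (limma adjusted p = 0.296), and the 2 Rbbp7 OE libraries differed 2.26-fold from each other. Without Rbbp7 OE replicate 1, the library with the high Col3a1, the log2 fold change in Rbbp7 OE was -1.53 (limma adjusted p = 0.36, with the spread of the remaining library taken from the other groups), and without Rbbp7 OE replicate 2 it was -0.43 (limma adjusted p = 0.632), so the size of the Lifr difference in that line rests on which library is kept. The Rbbp4 OE difference passed where fewer genes were tested, at a mean of at least 5 TPM (limma adjusted p = 0.0344) or among protein-coding genes (limma adjusted p = 0.0387), and also with a replicate block (limma adjusted p = 0.0303). Over all 17 alternatives its adjusted p ran from 0.0303 to 0.306.

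The bases before a Lifr start site are shown because Lifr had the largest difference of the 10 genes. They cover -250 to -21 from a RefSeq start (GRCm38.p6, chr15:7129322-7129551, plus strand, RefSeq promoter table), and the 39 CG dinucleotides are in capitals. That start lies inside the gene span given above, which begins upstream at chr15:7090614.
Lifr: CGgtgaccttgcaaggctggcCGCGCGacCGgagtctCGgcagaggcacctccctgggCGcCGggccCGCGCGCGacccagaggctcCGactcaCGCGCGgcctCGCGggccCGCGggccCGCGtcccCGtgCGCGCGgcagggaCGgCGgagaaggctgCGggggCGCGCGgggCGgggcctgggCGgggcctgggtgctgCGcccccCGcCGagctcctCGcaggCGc
The full window of 250 bases holds 43 CG dinucleotides, more than in 99.29% of the 32851 promoter windows of that length, whose median was 6. A start site of Lifr further downstream has 3.

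Il6st (ENSMUSG00000021756.12, chr13:112464070-112510086, plus strand) encodes gp130, the chain that all cytokines of this family share. It had 10.6 and 14.4 TPM in the controls, 10.1 and 8.68 TPM with Rbbp4 OE and 9.41 and 10.6 TPM with Rbbp7 OE. The lower control was just above the highest library of each line, and the groups did not overlap. The log2 fold change was -0.37 in Rbbp4 OE (SE 0.17, limma adjusted p = 0.208) and -0.28 in Rbbp7 OE (limma adjusted p = 0.481). The ratio of Lifr to Il6st, on the TPM scale, was 2.92 and 1.64 in the controls, 1.15 and 0.906 with Rbbp4 OE and 2.11 and 0.825 with Rbbp7 OE. The 2 receptor transcripts together came to 41.7 and 38.0 TPM in the controls, 21.7 and 16.5 TPM with Rbbp4 OE and 29.2 and 19.4 TPM with Rbbp7 OE, a sum that Lifr dominates in the controls.

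The kinases showed small differences. Jak1 (ENSMUSG00000028530.14, chr4:101152367-101265282, minus strand), the main kinase of gp130 signalling, had 11.7 and 14.6 TPM in the controls, 11.4 and 10.8 TPM with Rbbp4 OE and 14.59 and 14.55 TPM with Rbbp7 OE. Its log2 fold change was -0.22 in Rbbp4 OE (95% interval -0.53 to 0.09, limma adjusted p = 0.315) and 0.15 in Rbbp7 OE (limma adjusted p = 0.645). Jak2 (ENSMUSG00000024789.13, chr19:29251828-29313080, plus strand), which also binds gp130, was the lowest of the 10 genes in every library. It had 1.02 and 1.19 TPM in the controls, 1.17 and 1.28 TPM with Rbbp4 OE and 2.02 and 1.44 TPM with Rbbp7 OE, with log2 fold changes of 0.08 (limma adjusted p = 0.833) and 0.37 (limma adjusted p = 0.462). At this level the intervals were wide, from -0.42 to 0.59 in Rbbp4 OE.

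Stat3 (ENSMUSG00000004040.16, chr11:100885098-100939540, minus strand) encodes the transcription factor through which LIF acts on its targets. It had 43.8 and 58.4 TPM in the controls, 28.6 and 29.3 TPM with Rbbp4 OE and 39.7 and 44.5 TPM with Rbbp7 OE. The Rbbp4 OE libraries lay below all 4 others, and the Rbbp7 OE libraries overlapped the controls. The control mean was 51.1 TPM ± 10 (SD, n = 2). The Rbbp4 OE mean was 29.0 TPM ± 0.44 (SD, n = 2), a ratio of 0.567 to control. For Rbbp4 OE the log2 fold change was -0.78 (SE 0.14, 95% interval -1.13 to -0.44, limma adjusted p = 0.0255), with 3.06% of the tested genes lower. In Rbbp7 OE it was -0.26 (95% interval -0.61 to 0.08, limma adjusted p = 0.442). The Rbbp4 OE call was lost in 7 of 17 alternatives, with no filter, in the fit of the 2 groups alone (limma adjusted p = 0.0802) and without any single library other than control replicate 1, while the log2 fold change stayed between -0.99 and -0.58. Its adjusted p ran from 0.0122 to 0.177. Stat3 overlaps the end of Stat5a on the other strand, which had 0.76 to 1.97 TPM.

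The bases before the Stat3 start are shown because Stat3 is the member that passed as lower. They cover -250 to -1 (GRCm38.p6, chr11:100939541-100939790, minus strand, RefSeq promoter table), with the 13 CG dinucleotides in capitals.
Stat3: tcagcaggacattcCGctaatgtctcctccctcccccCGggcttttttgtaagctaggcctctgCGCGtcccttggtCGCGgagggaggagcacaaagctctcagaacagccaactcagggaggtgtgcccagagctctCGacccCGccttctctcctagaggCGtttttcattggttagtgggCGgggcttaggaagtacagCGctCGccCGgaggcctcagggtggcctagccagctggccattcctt
This count is above that of 68.46% of the windows.

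In Rbbp4 OE, 3.29% of all tested genes passed as higher and 8.07% as lower. Of the 5 target genes, Junb passed as higher and none passed as lower, which is no result about the 5 as a list. Their summed level was 259 and 255 TPM in the controls, 278 and 279 TPM with Rbbp4 OE and 275 and 283 TPM with Rbbp7 OE. Socs3 (ENSMUSG00000053113.3, chr11:117966079-117970047, minus strand), the feedback inhibitor, had 67.0 and 73.0 TPM in the controls, 76.8 and 74.6 TPM with Rbbp4 OE and 69.5 and 73.1 TPM with Rbbp7 OE. The Rbbp4 OE libraries lay just above the other 4. Its log2 fold change was 0.11 in Rbbp4 OE (95% interval -0.06 to 0.29, limma adjusted p = 0.341) and 0.03 in Rbbp7 OE (95% interval -0.15 to 0.20, limma adjusted p = 0.906), and the sign of both turned in at least 1 of the GC and length corrections. The ratio of Socs3 to Stat3 was 1.53 and 1.25 in the controls, 2.68 and 2.55 with Rbbp4 OE and 1.75 and 1.64 with Rbbp7 OE.

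Socs3 was the 1 gene of the 9 with a promoter window whose window held TTCNNNGAA, the spaced palindrome to which STAT proteins bind. The stretch from -250 to -101 (GRCm38.p6, chr11:117969467-117969616, minus strand, RefSeq promoter table) is shown with that match, at -154 to -146, in capitals. The stretch lies inside the span of Socs3 given above.
Socs3: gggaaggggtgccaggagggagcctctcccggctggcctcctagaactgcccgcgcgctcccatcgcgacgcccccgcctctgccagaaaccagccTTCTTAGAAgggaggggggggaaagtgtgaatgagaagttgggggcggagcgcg
The motif reads the same on both strands, and it occurs in 7.02% of all promoter windows of 250 bases. It was found in 1 of the 11 windows of the pathway genes. A match is a description of the letters and no evidence of binding in these cells.

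Pim1 (ENSMUSG00000024014.8, chr17:29490753-29496112, plus strand) and Pim3 (ENSMUSG00000035828.11, chr15:88862186-88865726, plus strand) encode serine/threonine kinases that promote survival and self-renewal. Pim1 had 57.9 and 63.1 TPM in the controls, 54.0 and 55.3 TPM with Rbbp4 OE and 54.3 and 56.0 TPM with Rbbp7 OE. Its log2 fold changes were -0.14 (limma adjusted p = 0.246) and -0.13 (limma adjusted p = 0.452). Pim3 lay on the other side of the controls. It had 74.7 and 65.1 TPM in the controls, 79.6 and 81.7 TPM with Rbbp4 OE and 78.4 and 85.5 TPM with Rbbp7 OE, with log2 fold changes of 0.21 (limma adjusted p = 0.179) and 0.23 (limma adjusted p = 0.297). In neither gene did the lines overlap the controls, and neither passed.

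Junb (ENSMUSG00000052837.7, chr8:84974484-84978718, minus strand) encodes a subunit of the AP-1 transcription factor. It had 34.1 and 30.6 TPM in the controls, 41.2 and 42.9 TPM with Rbbp4 OE and 42.3 and 39.8 TPM with Rbbp7 OE. All 4 overexpression libraries were above both controls, and the lines overlapped each other. The log2 fold change was 0.37 in Rbbp4 OE (SE 0.086, 95% interval 0.16 to 0.58, limma adjusted p = 0.0474), with 11.3% of the tested genes higher, and 0.33 in Rbbp7 OE (95% interval 0.13 to 0.54, limma adjusted p = 0.182). Its 2 values were of like size, and the threshold fell between them. The Rbbp4 OE call was lost in 10 of 17 alternatives, among them the GC and length corrections, in which the log2 fold change came to 0.17 and 0.23, and its adjusted p ran from 0.0284 to 0.217. The 3′ end of Junb overlaps that of Prdx2, an abundant gene on the other strand with 206 to 246 TPM that was at -0.05 on the log2 scale in Rbbp4 OE (limma adjusted p = 0.614), and the strand setting of the counting is not given in the sources used here.

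The bases before the Junb start are shown because Junb is the member that passed as higher. They cover -250 to -1 (GRCm38.p6, chr8:84978749-84978998, minus strand, RefSeq promoter table), with the 20 CG dinucleotides in capitals.
Junb: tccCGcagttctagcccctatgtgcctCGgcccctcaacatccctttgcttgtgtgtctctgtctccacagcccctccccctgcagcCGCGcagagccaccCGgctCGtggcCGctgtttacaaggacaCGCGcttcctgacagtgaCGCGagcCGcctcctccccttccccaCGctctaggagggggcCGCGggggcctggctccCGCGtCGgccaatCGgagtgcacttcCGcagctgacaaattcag
This count is above that of 82.05% of the windows.

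Myc (ENSMUSG00000022346.16, chr15:61985391-61990374, plus strand) encodes a transcription factor of growth and proliferation. It had 25.3 and 23.2 TPM in the controls, 26.4 and 24.7 TPM with Rbbp4 OE and 30.9 and 28.2 TPM with Rbbp7 OE. The Rbbp7 OE libraries were the highest pair, and the Rbbp4 OE libraries overlapped the controls. Its log2 fold change was 0.07 in Rbbp4 OE (limma adjusted p = 0.665) and 0.27 in Rbbp7 OE (95% interval 0.05 to 0.50, limma adjusted p = 0.25).

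**Figure D2:**
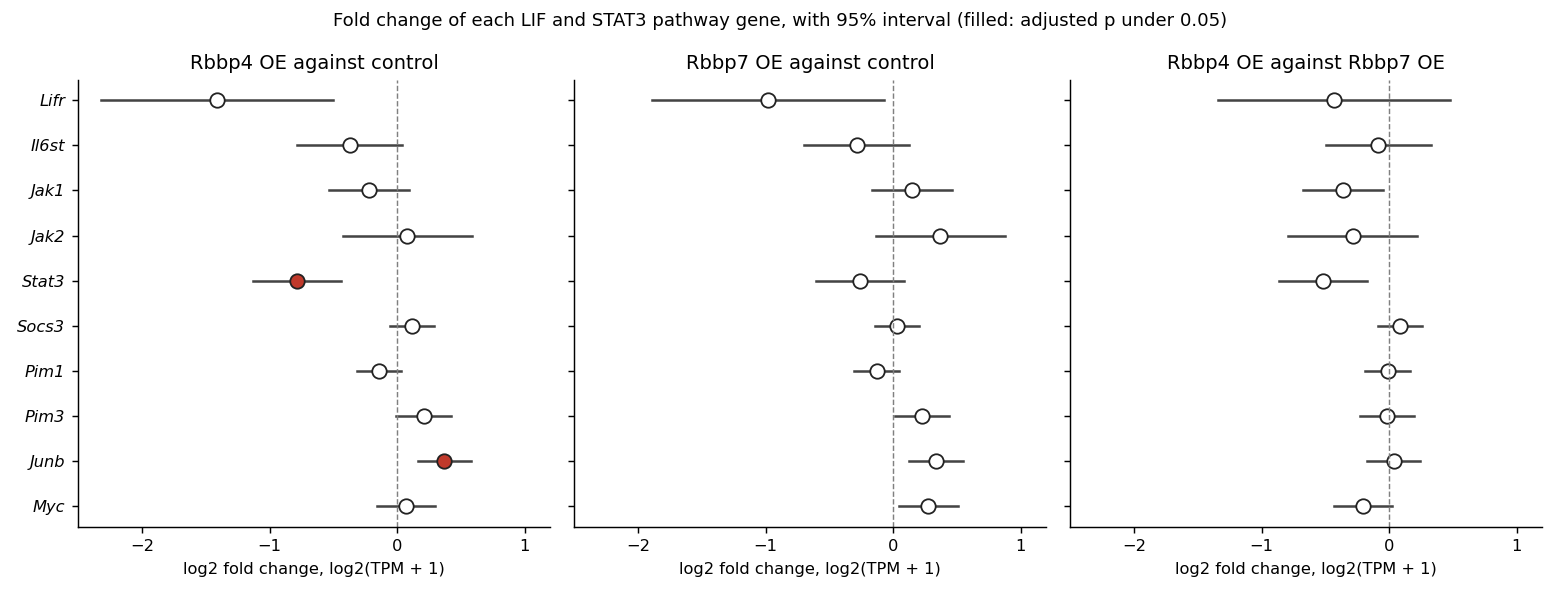
Log2 fold change on the log2(TPM + 1) scale (horizontal axis) of the 10 pathway genes in the 3 comparisons, as points with 95% intervals from the limma fit, filled where the adjusted p was under 0.05. Stat3 at -0.78 and Junb at 0.37 in Rbbp4 OE against control are the filled points, and Lifr has the widest intervals.

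Counted over the 10 genes, the Rbbp4 OE libraries did not overlap the controls in 8, with 5 lower (Lifr, Il6st, Jak1, Stat3 and Pim1) and 3 higher (Socs3, Pim3 and Junb). Of all tested genes, 57.9% did not overlap in this comparison, 37.1% lower and 20.8% higher. The median log2 fold change of the 10 was -0.04, beside -0.08 over all tested genes, and 5 of the 10 were below 0.

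For Rbbp7 OE the same question was put. None of the 10 genes passed, with limma adjusted p from 0.182 for Junb to 0.906 for Socs3. At an unadjusted p under 0.05 there were 4 of the 10, and 2180 of the 14156 tested genes. Junb, Pim3 and Myc were above the controls in every library and Lifr was below them, but few genes of any kind passed here, 0.487% of those tested, and 0.0353% met the stricter thresholds. The libraries did not overlap the controls in 7 of the 10 genes, 3 lower (Lifr, Il6st and Pim1) and 4 higher (Jak2, Pim3, Junb and Myc), beside 44.5% of all tested genes. The median log2 fold change of the 10 was 0.09, beside -0.0037 over all tested genes. The control libraries are shared between this comparison and that of Rbbp4 OE, so a control that stands high or low moves both alike.

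The lines were then compared with each other. None of the 10 passed, and 0.304% of all tested genes did, with 0.0494% past the stricter thresholds. At an unadjusted p under 0.05 there were 2 of the 10 and 2685 of all tested genes. Stat3 was lower in both Rbbp4 OE libraries than in both Rbbp7 OE libraries, a log2 difference of -0.52 (95% interval -0.87 to -0.18, limma adjusted p = 0.156), and Jak1 was lower by the same count, at -0.37 (95% interval -0.68 to -0.05, limma adjusted p = 0.221). For Lifr the difference was -0.43, with an interval from -1.34 to 0.48, and without Rbbp7 OE replicate 1 it turned to 0.12. Junb differed by 0.03 (95% interval -0.17 to 0.24), Socs3 by 0.09 (95% interval -0.09 to 0.26), Pim1 by -0.01 (95% interval -0.19 to 0.16) and Pim3 by -0.02 (95% interval -0.23 to 0.19), and the sign of each of these 4 turned under at least 1 alternative. The lines did not overlap in 5 of the 10 genes, beside 54.7% of all tested genes. The difference of Stat3 between the lines thus did not pass, although Stat3 passed against control in Rbbp4 OE and not in Rbbp7 OE.

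The order of the 10 genes by TPM, which divides by transcript length, shifted in the middle. In control it ran Socs3, Pim3, Pim1, Stat3, Junb, Lifr, Myc, Jak1, Il6st and Jak2. The neighbours Socs3 and Pim3, Pim1 and Stat3, Junb and Lifr, Lifr and Myc, and Jak1 and Il6st overlapped between the 2 control libraries. In Rbbp4 OE, Pim3 was highest at 80.7 TPM, Junb at 42.0 TPM stood above Stat3 at 29.0 TPM, and Lifr at 9.74 TPM lay between Jak1 and Il6st, overlapping both. In Rbbp7 OE, Stat3 at 42.1 TPM and Junb at 41.0 TPM overlapped, as did Jak1, Lifr and Il6st as neighbours. The ratio of Junb to Stat3 was 0.78 and 0.524 in the controls, 1.44 and 1.47 with Rbbp4 OE and 1.07 and 0.894 with Rbbp7 OE. It sets the gene that passed as higher over the gene that passed as lower, so in Rbbp4 OE it only restates those calls.

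The other genes of the pathway were described from 7 lists of 69 genes, of which 63 were tested. In Rbbp4 OE, 7 passed as higher and 4 as lower, 17.5% of those tested beside 11.4% of all genes. In Rbbp7 OE and between the lines, 0 of 63 passed by limma, beside 0.487% and 0.304% of all tested genes. At an unadjusted p under 0.05 there were 14 of the 63 in each. Over all 14156 tested genes there were 2180 in Rbbp7 OE and 2685 between the lines. Of all tested genes in Rbbp4 OE, 158 of 14156 passed in the fit of the 2 groups alone. With no filter 709 of 24675 passed, and 2039 of 9035 at a mean of at least 5 TPM. In those 3 fits the count of 11 in Rbbp4 OE was 0 of 63, 4 of 69 and 14 of 42. It fell in each fit that left out 1 library, as did the number of all tested genes that passed. In such a fit 1 group holds only 1 library. The median log2 fold change of the 63 genes in Rbbp4 OE was -0.07, beside -0.08 over all tested genes.

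**Figure D3:**
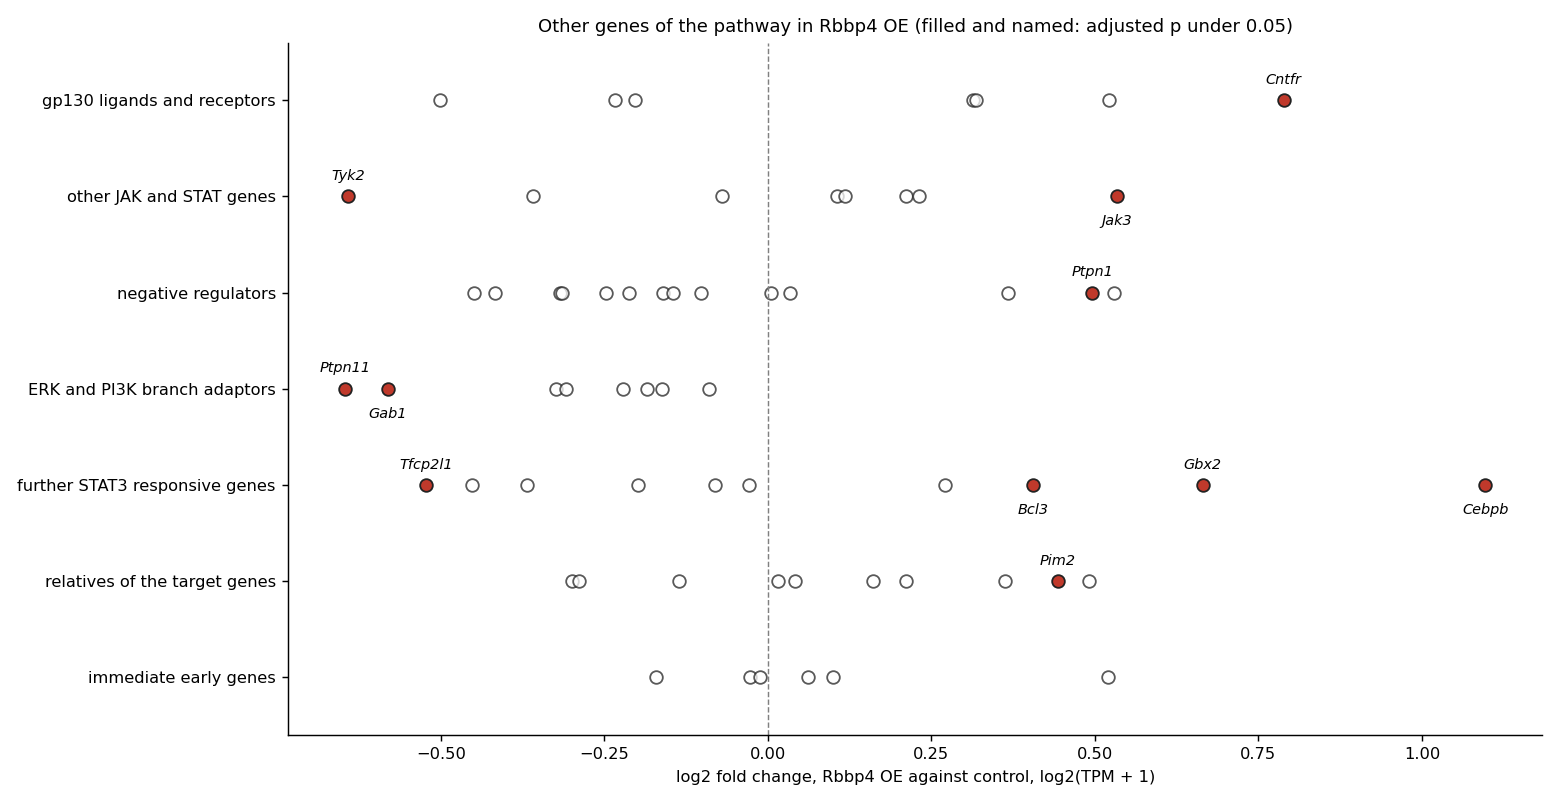
Log2 fold change in Rbbp4 OE against control on the log2(TPM + 1) scale (horizontal axis) of the tested genes of each of 7 further pathway lists (rows), filled and named where the adjusted p was under 0.05. Cebpb lies furthest to the right at 1.10, and Ptpn11 and Tyk2 furthest to the left at -0.65 and -0.64.

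Among ligands and receptors of the gp130 family, 1 of 7 tested genes passed as higher in Rbbp4 OE, beside 3.29% of all tested genes. The 1 gene was Cntfr, the receptor of ciliary neurotrophic factor, which uses LIFR and gp130 as partners. It had 1.33 and 1.41 TPM in the controls, 3.53 and 2.7 TPM with Rbbp4 OE and 2.44 and 2.31 TPM with Rbbp7 OE, a log2 fold change in Rbbp4 OE of 0.79 (limma adjusted p = 0.0476). The call was lost in 12 of 16 alternatives, with a log2 fold change from 0.35 to 1.12 and an adjusted p from 0.0317 to 0.169. Lif itself, which the medium supplied, had 2.01 to 3.53 TPM in the 6 libraries and was at -0.20 on the log2 fold scale in Rbbp4 OE (limma adjusted p = 0.625). Il11ra1, the interleukin 11 receptor, had 0.79 and 0.49 TPM in the controls. It had 1.26 and 1.43 TPM with Rbbp4 OE (log2 fold change 0.52, limma adjusted p = 0.16). With Rbbp7 OE it had 1.76 and 2.03 TPM (log2 fold change 0.82, limma adjusted p = 0.175). Il6, Il11, Clcf1 and Osmr were under the filter, with Clcf1 at 1.33 TPM in Rbbp7 OE replicate 1 and at most 0.28 TPM elsewhere.

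Of the 8 other JAK and STAT genes, 1 passed as higher and 1 as lower in Rbbp4 OE. The shares over all tested genes were 3.29% and 8.07%. Jak3, a kinase best known from lymphocyte cytokine receptors, had 23.1 and 25.9 TPM in the controls, 35.9 and 35.7 TPM with Rbbp4 OE and 29.1 and 32.1 TPM with Rbbp7 OE, a log2 fold change in Rbbp4 OE of 0.53 (limma adjusted p = 0.0235). Its level on this per-length scale was above that of Jak1 in every library. Tyk2, the kinase that can also bind gp130, had 13.5 and 16.1 TPM in the controls, 8.41 and 9.82 TPM with Rbbp4 OE and 12.1 and 13.9 TPM with Rbbp7 OE, a log2 fold change in Rbbp4 OE of -0.64 (limma adjusted p = 0.042). The call was lost in 8 of 17 alternatives for Jak3 (adjusted p from 0.0122 to 0.163) and in 10 of 17 for Tyk2 (adjusted p from 0.0255 to 0.209). Stat4 was at 0.58 in Rbbp7 OE (limma adjusted p = 0.312).

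Of 14 negative regulators, 1 passed as higher in Rbbp4 OE and 13 did not pass, beside 3.29% of all tested genes passing as higher. Ptpn1 encodes a tyrosine phosphatase that acts on JAK kinases. It had 37.5 and 32.8 TPM in the controls, 48.6 and 51.1 TPM with Rbbp4 OE and 50.4 and 45.4 TPM with Rbbp7 OE, with log2 fold changes of 0.50 (limma adjusted p = 0.0303) and 0.44 (limma adjusted p = 0.142). The Rbbp4 OE call was lost in 7 of 17 alternatives (adjusted p from 0.016 to 0.191). Socs1, a relative of Socs3, had 0.83 and 0.58 TPM in the controls and 1.41 to 1.66 TPM in the 4 overexpression libraries, at 0.53 in Rbbp4 OE (limma adjusted p = 0.142) and 0.59 in Rbbp7 OE (limma adjusted p = 0.246).

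In the ERK and PI3K branches, 2 of 8 genes passed as lower in Rbbp4 OE and none as higher. The share of all tested genes passing as lower was 8.07%. Ptpn11, which encodes SHP2, had 20.7 and 26.2 TPM in the controls, 13.7 and 15.4 TPM with Rbbp4 OE and 21.4 and 21.6 TPM with Rbbp7 OE, a log2 fold change in Rbbp4 OE of -0.65 (limma adjusted p = 0.0346). Gab1, the docking protein that SHP2 binds, had 67.7 and 78.7 TPM in the controls, 48.5 and 48.4 TPM with Rbbp4 OE and 60.5 and 59.6 TPM with Rbbp7 OE, a log2 fold change in Rbbp4 OE of -0.58 (limma adjusted p = 0.0161). The call was lost in 7 of 17 alternatives for Ptpn11 (adjusted p from 0.0182 to 0.193) and in 5 of 17 for Gab1 (adjusted p from 0.00736 to 0.145). All 8 genes of the list had a log2 fold change below 0 in Rbbp4 OE, with a median of -0.27, beside 59.0% of all tested genes below 0 and a median of -0.08, but after quantile normalization 7 of 8 did, and after the GC and length corrections 6 and 5.

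Further genes known to respond to STAT3 went both ways in Rbbp4 OE. Of the 10, 3 passed as higher and 1 as lower, beside 3.29% and 8.07% of all tested genes. Tfcp2l1, a pluripotency factor downstream of LIF, had 103 and 127 TPM in the controls, 82.0 and 76.8 TPM with Rbbp4 OE and 99.0 and 99.9 TPM with Rbbp7 OE, a log2 fold change in Rbbp4 OE of -0.52 (limma adjusted p = 0.033). Klf4, another such factor, had 178 and 239 TPM in the controls, 159.8 and 141 TPM with Rbbp4 OE and 194 and 218 TPM with Rbbp7 OE, and at -0.45 did not pass (limma adjusted p = 0.0969). Gbx2, a homeobox gene that LIF induces in mESCs, had 31.8 and 30.2 TPM in the controls, 48.0 and 51.6 TPM with Rbbp4 OE and 37.8 and 40.5 TPM with Rbbp7 OE, a log2 fold change in Rbbp4 OE of 0.66 (limma adjusted p = 0.0106). Bcl3, an NF-kappaB cofactor, was at 0.41 (limma adjusted p = 0.017). The call was lost in 8 of 17 alternatives for Tfcp2l1, in 6 for Gbx2 and in 7 for Bcl3.

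Cebpb, a transcription factor of acute-phase and fat cell genes, had the largest difference of the list. It had 4.48 and 3.45 TPM in the controls, 9.42 and 9.71 TPM with Rbbp4 OE and 4.53 and 4.52 TPM with Rbbp7 OE. For Rbbp4 OE the log2 fold change was 1.10 (SE 0.15, limma adjusted p = 0.0141), and between the lines it was 0.94 (limma adjusted p = 0.0944). The Rbbp4 OE call was lost in 6 of 17 alternatives (adjusted p from 0.00799 to 0.144). Its transcript has a GC content of 67.2%.

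Among relatives of the target genes, 1 of 10 passed as higher in Rbbp4 OE, beside 3.29% of all tested genes. Pim2, a Pim kinase, had 10.5 and 11.0 TPM in the controls, 15.0 and 14.9 TPM with Rbbp4 OE and 14.1 and 15.0 TPM with Rbbp7 OE, a log2 fold change in Rbbp4 OE of 0.44 (limma adjusted p = 0.0419), a call lost in 11 of 17 alternatives (adjusted p from 0.0229 to 0.195). Fos, an AP-1 partner of JUNB, had 3.97 and 3.89 TPM in the controls, 5.48 and 6.4 TPM with Rbbp4 OE and 7.11 and 8.08 TPM with Rbbp7 OE, with log2 fold changes of 0.49 (limma adjusted p = 0.0779) and 0.80 (limma adjusted p = 0.0964). Fosl1 had 2.62 TPM in Rbbp7 OE replicate 1 and at most 0.73 TPM in any other library. Of the 8 immediate early genes, 6 were tested and 0 passed by limma in any comparison. At an unadjusted p under 0.05 there were 1 in Rbbp4 OE and 2 in Rbbp7 OE. Over all 14156 tested genes these counts were 4187 and 2180. Zfp36, an RNA-binding protein gene, was at 0.52 in Rbbp4 OE (limma adjusted p = 0.14) and 0.69 in Rbbp7 OE (limma adjusted p = 0.2). Ier3 had 11.5 TPM in Rbbp7 OE replicate 1 and 3.36 to 5.14 TPM elsewhere.

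GC content and transcript length moved with the fold changes. Across 14142 tested genes the log2 fold change in Rbbp4 OE had a Spearman rho of 0.257 with the GC content of the longest transcript and of -0.244 with its length. Across the 10 pathway genes the values were 0.697 and -0.855. In Rbbp7 OE they were 0.168 and -0.0439 over the 14142 genes, and 0.285 and -0.709 across the 10. Between the lines they were 0.167 and -0.279 over the 14142 genes, and 0.721 and -0.661 across the 10. These are descriptions across genes measured in the same 6 libraries, and genes are not independent replicates. In Rbbp4 OE the 3 longest of the 10 genes were below control. Lifr has a longest transcript of 9655 nucleotides and 44.4% GC, Il6st one of 8678 nucleotides and 47.4%, and Stat3 one of 6042 nucleotides and 52.5%. Jak2, next with 5030 nucleotides, was at 0.08, and Pim1 was at -0.14 with 2698 nucleotides. Junb, which was higher, is the shortest at 1809 nucleotides and the richest in GC at 62.6%. Over all tested genes, the decile with the longest transcripts had a median log2 fold change of -0.209 and the decile with the highest GC content one of 0.0849. After a spline correction for both properties, Stat3 stayed at -0.69 (limma adjusted p = 0.0253), or -0.64 with the overall shift of each library also removed (limma adjusted p = 0.0278). Junb came to 0.17 (limma adjusted p = 0.173) and 0.23 (limma adjusted p = 0.0977), and Lifr to -1.23 (limma adjusted p = 0.101) and -1.17 (limma adjusted p = 0.125).

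**Figure D4:**
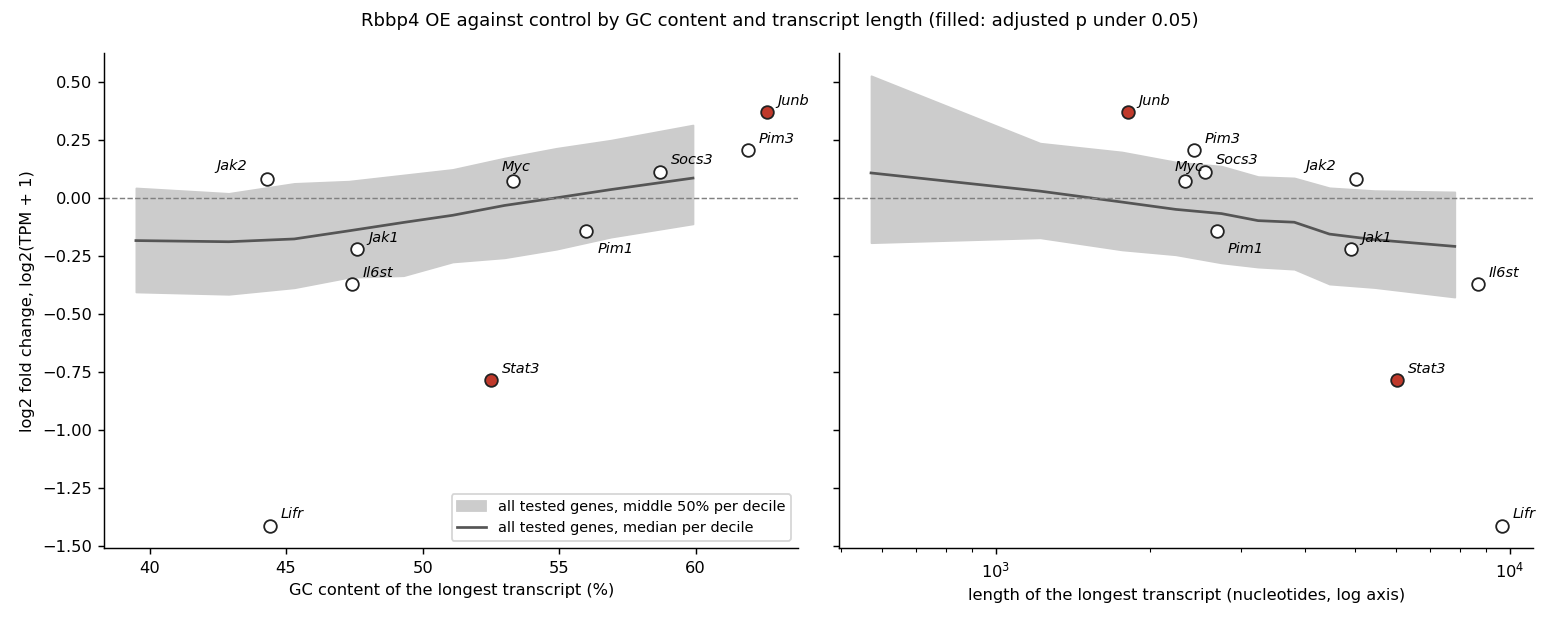
Log2 fold change in Rbbp4 OE against control (vertical axis) by GC content in percent (left) and by length in nucleotides on a log axis (right) of each gene's longest transcript. The grey band and line are the middle 50% and the median of all tested genes in each decile. Stat3 lies below the band in both panels at -0.78. Lifr at -1.41 lies below it on the left, and Junb at 0.37 lies above it on the right. In the other panel, Lifr and Junb each lie past the right end of the band.

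The genes whose level was most like that of Socs3 over the 6 libraries were Smarcd1, Mrps23, Akirin2, Map4k1 and Rmnd5b, with Pearson r from 0.965 to 0.992 among 8572 protein-coding genes with a mean of at least 5 TPM. In all, 9 genes had an r over 0.95, and how many of the 8572 would reach it by chance was not tested. Socs3 varied little, with an SD of 0.0706 on the log2 scale over the libraries, so these r values compare small differences between 6 points.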

How the data were processed

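Poly(A) RNA was sequenced in 6 libraries, and samples were grouped by their genotype labels. The authors used Trim_galore for trimming, STAR for alignment to mm10 and RSEM for gene levels, and the TPM values they deposited come as 1 table per library. TPM keeps no sequencing depth, which is unknown here, so no counting interval is given. A listed 0 can be a failed estimate.

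Names and positions came from GENCODE M21 on GRCm38, matched without version for 55141 of 55401 identifiers. The study's count model could not be used on TPM, so limma 3.58.1 in R 4.3.3 was run with a trend on log2(TPM + 1), which understates fold changes of low genes. Genes with a mean of at least 0.5 TPM entered 1 fit of 3 groups with 3 residual degrees of freedom, tested two-sided. The script was tested on simulated data.

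The pathway genes and all lists were chosen with earlier results of these data known. The text names all 10 pathway genes, the overexpressed genes, Lif, Klf4 and Tfcp2l1, list genes that passed or had the 2 largest absolute log2 fold changes of their list against control in either line, and the 5 genes most like Socs3. Marker genes, genes under the filter, Stat5a and Prdx2 were named outside this rule after their values were seen. Promoter windows came from the RefSeq table for 9 of the 10 genes. The fit was repeated with a pseudocount of 0.1 or 5, without the filter or with one at 5 TPM, with quantile normalization or median-of-ratios scaling, with the replicate number as a block, with only 2 groups, with protein-coding genes alone, with corrections for GC content and length, at an adjusted p under 0.01, and without each library in turn.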

Additional observations from a re-analysis of the deposited data

How the results depend on the processing

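Of the 10 pathway genes, 2 passed in Rbbp4 OE against control. Over all tested genes 1609 of 14156 passed, and that number moved with the setting too. It was 2039 of 9035 at a mean of at least 5 TPM, 1970 of 12392 among protein-coding genes and 709 of 24675 with no filter. It was 158 of 14156 in the 2-group fit, and 1444 and 1220 of 14142 under the GC and length corrections. The count for the 10 was 3 at a mean of at least 5 TPM, where 9 were tested, and 3 among protein-coding genes. It was 1 under both GC and length corrections, and 0 with no filter, in the 2-group fit and at an adjusted p under 0.01. When 1 library was left out it ran from 0 to 2. It was 2 only without control replicate 1, and 0 without control replicate 2, either Rbbp4 OE library or either Rbbp7 OE library. In the fits that drop a library or a group, fewer samples estimate the spread, and without a filter more genes are tested. With a replicate block the count was also 2, but Lifr passed in place of Junb, and 900 of all tested genes passed in place of 1609. The labels do not say whether replicate numbers pair the samples. The deviations of replicate 1 from the group means correlated between groups at -0.0308 to 0.0336. These values show no shared replicate effect over all tested genes, but they cannot exclude that libraries were handled in pairs. In Rbbp7 OE against control and between the lines the count was 0 under every alternative run, the replicate block and each left-out library included.

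Of 760 values of single genes under the alternatives, 629 kept their sign and their side of the threshold, 104 lost the call, 4 gained it and 23 changed sign, all 23 in comparisons in which the gene had not passed. Under the GC and length correction with shift kept, Socs3 came to -0.0498 against control for Rbbp4 OE, to -0.0449 for Rbbp7 OE and to -0.0049 between the lines, where Junb came to -0.0615 and Il6st to 0.0554. With the shift removed, Socs3 came to -0.0565 in Rbbp7 OE and Il6st to 0.125 between the lines. Between the lines, median-of-ratios scaling gave 0.0037 for Il6st, 0.0848 for Pim1 and 0.0773 for Pim3, and quantile normalization gave 0.0288, 0.0648 and 0.0392. With 1 library left out, the values in Rbbp7 OE ran from -0.0037 to 0.295 for Jak1 and from -0.0344 to 0.0876 for Socs3, those between the lines from -0.977 to 0.117 for Lifr, -0.183 to 0.0106 for Il6st, -0.0352 to 0.0098 for Pim1, -0.0823 to 0.0407 for Pim3 and -0.00997 to 0.0789 for Junb, and that of Lif in Rbbp4 OE from -0.498 to 0.0916. The causes were not tested. Depth is unknown, so what it limits cannot be stated.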
